A study of Homo sapiens with 18 samples.

Results

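The transcripts described here are 37 genes of glycolysis and of the response to low oxygen. They were chosen by gene symbol, as 17 glycolytic enzymes, 2 regulators of glycolysis, 4 glucose or lactate transporters, 5 hypoxia regulators and 9 hypoxia target genes. All 37 were among the 58870 genes of the table. Polyadenylated RNA came from 18 libraries of HEK293T, a human embryonic kidney line, in 6 groups of 3. Each group received 1 plasmid carrying a base editor and a guide: SaABE (the adenine deaminase ABE8e on a nickase of Staphylococcus aureus Cas9), SpABE (ABE8e on the Streptococcus pyogenes nickase) or SpCBE (the cytosine deaminase evoCDA1 on that same nickase), with a guide to a splice site of NRF1 exon 7 or to an intergenic site. The intergenic controls therefore carried the editor as well. All groups were grown in high-glucose medium with pyruvate, transfected as 750000 cells, kept under puromycin for 48 hours and lysed 72 hours after transfection. The cells are a transiently transfected population, and the share of edited cells was not analysed here.

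Glycolysis splits glucose into pyruvate in a chain of enzymes, yielding ATP and NADH, and lactate dehydrogenase then turns pyruvate into lactate. Cultured cell lines such as HEK293T run the chain at a high rate. HIF1A and EPAS1 are the oxygen-sensitive subunits of the hypoxia-inducible factors: with oxygen, the EGLN prolyl hydroxylases mark them for destruction, and without it they pair with ARNT and turn on genes that hold the core letters ACGTG or GCGTG, many glycolytic enzymes among them. Since HIF proteins are controlled mainly by their stability, an mRNA level says little about how much of the protein is present. NRF1, nuclear respiratory factor 1, is a transcription factor that binds GC-rich promoters of housekeeping genes, including genes of mitochondrial respiration.

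Libraries held 28101094 to 40687447 estimated counts, of which the 37 genes took 0.999% to 1.06%. Levels are given as CPM, counts brought to a common library total with TMM scaling, and as TPM where genes are compared per length. NRF1 mRNA itself was at 24.4 to 33.1 CPM in the 9 controls against 35.7 to 43.8 CPM under the NRF1 guide, a log2 fold change of 0.49 ± 0.045 (SE, adjusted p = 3.61e-09). A gene-level count does not show exon 7. The labelled cell type was checked with 5 markers of HEK293 cells, none of which was absent. NEFM and INA, neurofilament genes known from this line, were at 59.3 CPM or above in each library, while the renal factors PAX2 and LHX1 were low, at 1.23 to 3.63 and 2.98 to 4.64 CPM. Of the 8 blood, 8 fibroblast and 6 epithelial markers, 6, 5 and 2 had a mean under 1 CPM. The summed HEK293 markers were at 210.1 to 247 CPM in the controls and 179 to 207 CPM under the NRF1 guide, NEFL and INA being lower. The summed fibroblast markers, mostly COL6A1 and COL1A1, were lower with the NRF1 guide without overlap in each editor, at 97.9 to 108 CPM in the controls against 84.0 to 92.0 in SaABE, 96.5 to 108 against 87.0 to 90.6 CPM in SpABE and 112 to 116 against 104 to 107 CPM in SpCBE. Among all tested genes taken singly, 15.2% lay apart by guide in each editor in 1 direction. Of the 5 tested fibroblast markers, 2 passed lower and none higher over all editors, or 40%, near the 39.4% of all tested genes. In SaABE 2 passed lower and 1 higher, at 0.79, or 60% beside 32.4%. The summed epithelial markers were at 105.6 to 106.9 CPM in the SaABE controls against 108.1 to 111.9 with the NRF1 guide. Their guides overlapped in SpABE and SpCBE. Of 4 RNA-handling transcripts 3 were tested, and over all editors MALAT1 was higher, by 0.16 ± 0.041 (SE, adjusted p = 0.0039) on the log2 scale, and KCNQ1OT1 lower, at -0.24 ± 0.073 (SE, adjusted p = 0.0116). Both also passed in SpABE (0.27 and -0.48). The part of these shifts in the results was not tested. In bulk RNA a smaller share of cells expressing a gene and less RNA per cell cannot be told apart.

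Per length, GAPDH, which oxidises glyceraldehyde phosphate, had the highest level, a mean of 3444 TPM (range 3262 to 3618) over the 18 libraries. The enolase ENO1 followed at 1312 TPM, the lactate dehydrogenase subunit LDHB at 1164, the aldolase ALDOA at 1030.2 and triosephosphate isomerase TPI1 at 995 TPM. From ENO1 down, the ranges of neighbours overlapped: ENO1 1222 to 1399.6 TPM, LDHB 1044 to 1260, ALDOA 893 to 1109.6 and TPI1 947 to 1059.5. Within libraries, ALDOA was above TPI1 under each NRF1 guide and below it in each SpABE control. LDHA, the other lactate dehydrogenase subunit, stood at 375 TPM (range 335 to 435), under LDHB in each library. In CPM the means were 543 for LDHA and 835 for LDHB, and the exon lengths used for TPM were 6026 and 2983 bases. HIF1A, at 106 TPM, was well above EPAS1 at 14.3 TPM, and the oxygen sensor EGLN1, at 71.5 TPM, above its hypoxia-induced relative EGLN3 at 4.65 TPM. The lactate exporter SLC16A1 (MCT1) was at 218 TPM, whereas SLC16A3 (MCT4), the exporter typical of hypoxic cells, had 97 counts in all, 2 to 11 a library. CA9, a carbonic anhydrase used as a marker of hypoxia, had 9 counts in all, 0 to 3 a library. These 2 genes were too low to be tested, which left 35 of 37. Exons of SLC16A3 and CA9 overlap the far more abundant CSNK1D and ARHGEF39 on the opposite strand, and the strand setting of the counting is not given in the sources used here.

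**Figure D1:**
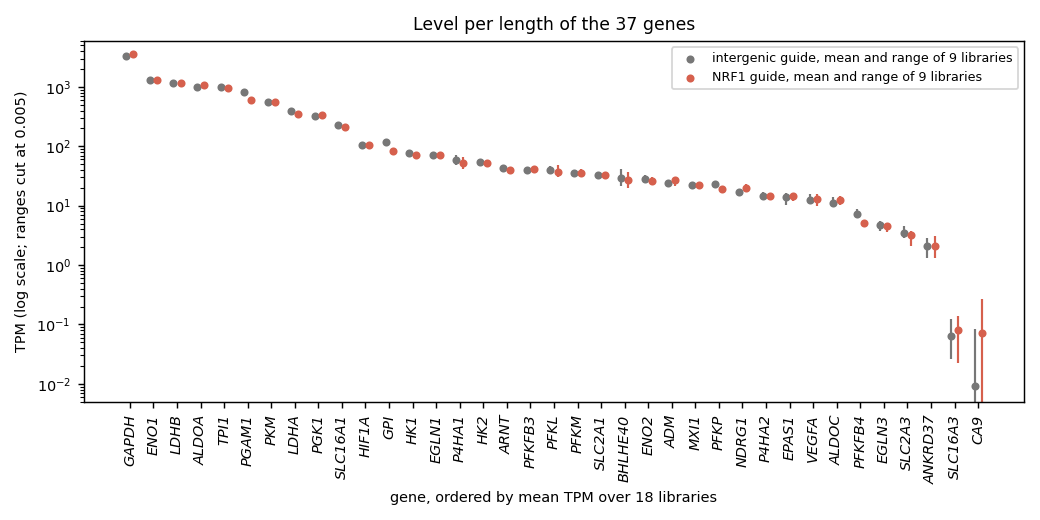
TPM of each of the 37 genes on a log scale, ordered by the mean over 18 libraries. Points are means and bars ranges of the 9 intergenic-guide and 9 NRF1-guide libraries. GAPDH leads at 3444 TPM and SLC16A3 and CA9 lie at 0.272 TPM or below in each library.

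The first question was what the NRF1 guide changed over all 3 editors, 9 libraries against 9. Of the 35 tested genes 20 passed an adjusted p of 0.05 in edgeR's quasi-likelihood test, 13 higher and 7 lower with the NRF1 guide, and 15 did not pass. That is 57.1% of them, beside 39.4% of the 17743 genes tested, of which 20.6% were higher and 18.8% lower. The gap depends on the low-count genes included. When only genes at 1 CPM or more in at least 9 libraries were tested, 57.1% of the 35 passed beside 48.3% of 14220 genes. None of the 35 passed an absolute log2 fold change over 0.5 as well, a rule met by 5.50% of all tested genes. DESeq2 also gave 0 at that rule, and 24 of the 35 (68.6%) had an unadjusted p under 0.05 with either tool, beside 46.8% of all tested genes with edgeR and 45.8% with DESeq2. The median log2 fold change of the 35 was 0.02, beside 0.01 for all tested genes. By role, 8 of 17 enzymes rose and 5 fell, 1 of 2 glycolysis regulators rose and 1 fell, none of 3 tested transporters passed, 1 of 5 hypoxia regulators rose, and 3 of 8 tested hypoxia targets rose and 1 fell. In single editors, 14 of the 35 passed in SaABE (7 higher and 7 lower, 40% beside 32.4% of all tested genes), 17 in SpABE (10 and 7, 48.6% beside 32.6%) and 11 in SpCBE (5 and 6, 31.4% beside 23.1%). With the 1 CPM filter these shares were 45.7% beside 40.8%, 54.3% beside 40.8% and 34.3% beside 29.6%. When the editor was left out of the model, 7 of 35 passed, or 20%, a share near the 19.4% of all tested genes. They were GPI, PGAM1, PFKFB4, PFKP, GAPDH, ALDOA and NDRG1.

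Groups did not overlap in any editor, all in 1 direction, for 10 of the 35 genes, 4 higher and 6 lower, beside 15.2% of all tested genes. The 4 were GAPDH, ALDOA, PGK1 and NDRG1, and the 6 were GPI, PGAM1, PFKP, PFKFB4, LDHA and P4HA1. PGK1 was barely apart in SpABE, with 446.5 CPM in the highest control and 446.9 in the lowest NRF1-guide library. It did not pass there, at 0.03 ± 0.025 (SE, adjusted p = 0.311). In TPM its SpABE means were 341 in the controls and 336 with the NRF1 guide. With all 9 libraries set against all 9, GPI, PGAM1 and PFKFB4 stayed apart, each lower with the NRF1 guide, against 6.70% of all tested genes in either direction. Within 1 editor, the guides did not overlap for 18 genes in SaABE, 25 in SpABE and 18 in SpCBE, beside 40.0%, 44.5% and 38.8% of all tested genes.

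**Figure D2:**
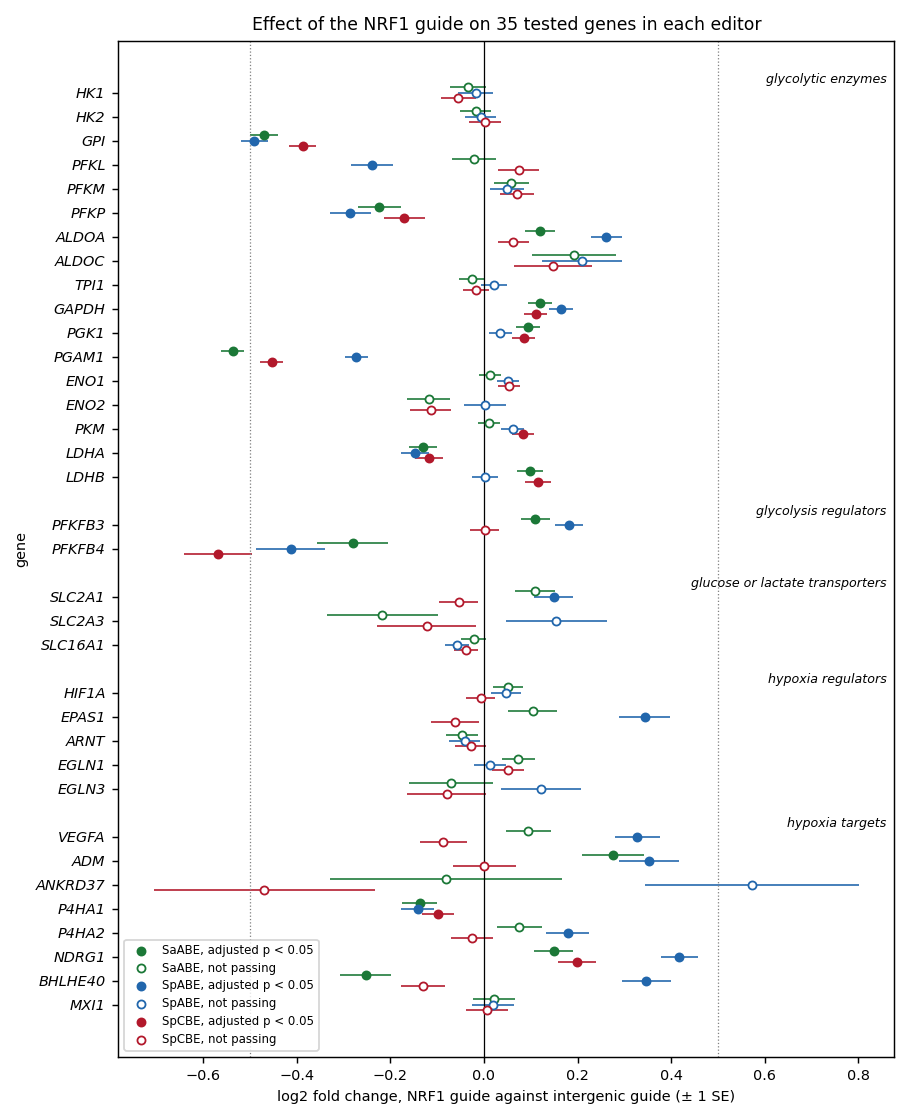
Log2 fold change of the NRF1 guide against the intergenic guide for the 35 tested genes in SaABE (green), SpABE (blue) and SpCBE (red), by role. Bars are 1 standard error, filled points passed an adjusted p of 0.05, and dotted lines mark a log2 fold change of 0.5 either way. GPI, PGAM1, PFKP, PFKFB4, LDHA and P4HA1 lie left of 0 in each editor, and BHLHE40 lies at -0.25 in SaABE and 0.35 in SpABE.

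Among the enzymes, the falls of GPI and PGAM1 were the largest over all editors. GPI, which interconverts glucose 6-phosphate and fructose 6-phosphate, fell by 26.8% over all editors, a log2 fold change of -0.45 ± 0.02 (SE, adjusted p = 4.56e-15). GPI was at 299, 284 and 288 CPM in the SaABE intergenic libraries against 206, 217 and 205 with the NRF1 guide, at 298, 308 and 316 against 216, 219.6 and 221 CPM in SpABE, and at 282, 299.6 and 288 against 220.2, 221 and 224 CPM in SpCBE. Each NRF1-guide library was below each control. Its effect was -0.47 ± 0.03 in SaABE, -0.49 ± 0.029 in SpABE and -0.39 ± 0.029 in SpCBE. PGAM1, the phosphoglycerate mutase that moves a phosphate within 3-phosphoglycerate late in the chain, fell by 25.3%, or -0.42 ± 0.028 (SE, adjusted p = 7.3e-12) on the log2 scale. PGAM1 was at 487, 487 and 482 CPM in the SaABE intergenic libraries against 333, 341 and 329 with the NRF1 guide, at 486, 502 and 499.6 against 415, 409.6 and 406 CPM in SpABE, and at 483, 512 and 510.0 against 364, 366 and 369 CPM in SpCBE. The 9 control libraries lay within 482 to 512 CPM, and the NRF1-guide libraries of SpABE lay above those of the other editors. PGAM1 in SaABE, at -0.54 ± 0.025 (SE, adjusted p = 1.48e-14), was the only one of the 35 genes past a log2 fold change of 0.5 in that editor, where 6.05% of all tested genes were. In SpABE its effect was -0.27 ± 0.024, next to -0.29 ± 0.044 for PFKP.

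Phosphofructokinase, the committing step of glycolysis, is made of the subunits PFKL, PFKM and PFKP. PFKP, the platelet-type subunit, fell by 14.5%, at -0.23 ± 0.028 (SE, adjusted p = 4.89e-07). PFKP was at 43.7, 44.4 and 42.7 CPM in the SaABE intergenic libraries against 37.3, 37.4 and 37.3 with the NRF1 guide, at 37.6, 40.6 and 43.1 against 32.1, 33 and 34.3 CPM in SpABE, and at 41.1, 42.5 and 44.7 against 37.5, 38.3 and 38.2 CPM in SpCBE. The guides did not overlap in any editor. PFKM, the muscle-type subunit, was slightly higher over all editors, at 0.06 ± 0.022 (SE, adjusted p = 0.0343), though its exons overlap SENP1 on the opposite strand, whose counts came to 91.0% of its own. PFKL, the liver-type subunit, did not pass over all editors, at -0.06 ± 0.039 (SE, adjusted p = 0.23), and fell in SpABE, at -0.24 ± 0.046 (SE, adjusted p = 0.00021). The PFKM call was lost when any 1 of 6 libraries was left out (adjusted p = 0.0554 to 0.0729), and without a filter on low counts (0.124).

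LDHA, the subunit that favours making lactate, fell by 8.74%, at -0.13 ± 0.018 (SE, adjusted p = 3.15e-06). LDHA was at 551, 596 and 577 CPM in the SaABE intergenic libraries against 537, 522 and 515 with the NRF1 guide, at 611, 625 and 606 against 560.4, 569 and 535 CPM in SpABE, and at 496, 528 and 519.9 against 478, 469.7 and 476 CPM in SpCBE. Within each editor the guides stood apart, while the SpABE NRF1-guide libraries overlapped the SaABE controls. LDHB, the subunit of oxidative tissues, moved the other way, at 0.07 ± 0.02 (SE, adjusted p = 0.00601), with passing effects in SaABE (0.10) and SpCBE (0.12) and 0.00 ± 0.028 (SE, adjusted p = 0.958) in SpABE. ENO2, the neuronal enolase, was lower, at -0.08 ± 0.029 (SE, adjusted p = 0.0402), and that call ended with any 1 of 13 libraries left out (adjusted p = 0.0503 to 0.0903), with RLE scaling (0.0620), with DESeq2 (0.0731), without a filter on low counts (0.155) and with the replicate number as a block (0.0936).

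The 8 enzymes that rose did so by 0.04 to 0.18 on the log2 scale over all editors. In TPM, which has no TMM scaling, ENO1 was not higher. Its means were 1315 TPM with the intergenic guide and 1308 with the NRF1 guide. PKM was at 547 and 549, PFKM at 35.7 and 36.0, PGK1 at 329 and 335 and LDHB at 1154 and 1174 TPM. GAPDH (3343 and 3545), ALDOA (995 and 1065) and ALDOC (11.2 and 12.3) were also higher in TPM. GAPDH rose by 9.56%, at 0.13 ± 0.016 (SE, adjusted p = 5.75e-07). GAPDH was at 2006, 1934 and 1958 CPM in the SaABE intergenic libraries against 2106, 2197 and 2107 with the NRF1 guide, at 1836, 1862 and 1936 against 2106, 2119.5 and 2090.5 CPM in SpABE, and at 1779, 1871 and 1882 against 1989.6, 1968 and 2014 CPM in SpCBE. It passed in each editor. ALDOA, the aldolase that splits fructose 1,6-bisphosphate, rose by 10.8%, at 0.15 ± 0.026 (SE, adjusted p = 7.32e-05). ALDOA was at 1002, 919 and 954 CPM in the SaABE intergenic libraries against 1021, 1092 and 1010.1 with the NRF1 guide, at 803, 827 and 856 against 983, 1003 and 995 CPM in SpABE, and at 896, 927 and 930.3 against 957, 933 and 987 CPM in SpCBE. Its SpABE controls, at 803 to 856 CPM, were the lowest of the 6 groups, and its effect was 0.26 ± 0.032 (SE, adjusted p = 6.46e-07) there against 0.06 ± 0.032 (SE, adjusted p = 0.177) in SpCBE. PGK1, the first ATP-yielding step, was higher by 0.07 ± 0.017, PKM, pyruvate kinase, by 0.05 ± 0.016, ENO1 by 0.04 ± 0.015 and the brain-type aldolase ALDOC by 0.18 ± 0.049, all passing. The ENO1 call ended when any 1 of 9 libraries was left out (adjusted p = 0.0525 to 0.0861), without a filter on low counts (0.167) and with the replicate block (0.103). The PKM call also ended with the block (adjusted p = 0.0503). The hexokinases HK1 and HK2, which trap glucose in the cell, and TPI1 did not pass. Their intervals were -0.08 to 0.01, -0.05 to 0.03 and -0.04 to 0.03 on the log2 scale (95%).

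**Figure D3:**
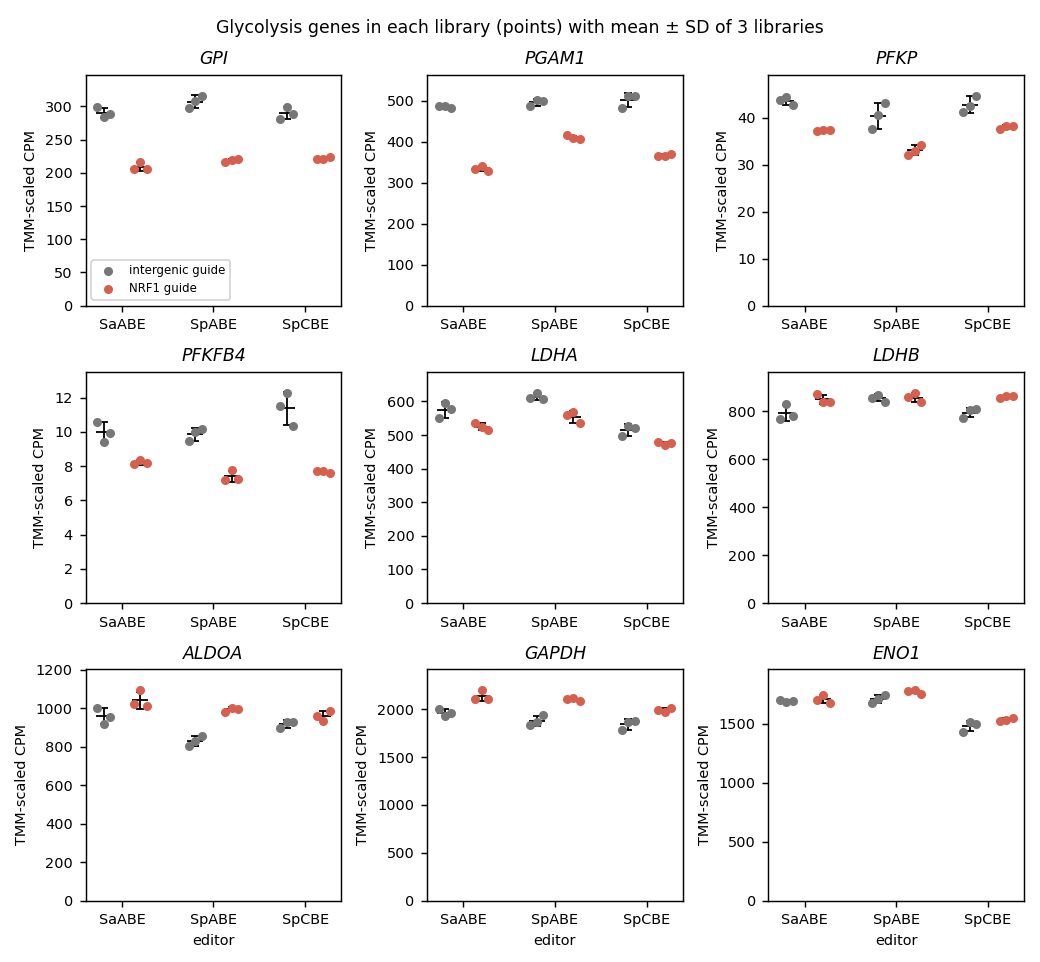
TMM-scaled CPM of 9 glycolysis genes in each of the 18 libraries, by editor, with the intergenic guide in grey and the NRF1 guide in red. Black marks are the mean and SD of 3 libraries and each axis starts at 0. GPI and PGAM1 separate by guide in each editor, and GAPDH is shifted upward by 9.56% over all editors.

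The summed level of the 17 enzymes, whose members moved in both directions, was 9438 ± 45.3 CPM (SD, n = 3) in the controls against 9499 ± 159.6 CPM under the NRF1 guide in SaABE, 9301 ± 192 and 9573 ± 70.2 CPM in SpABE, and 8859 ± 247 and 8999 ± 85.6 CPM in SpCBE. The libraries of both guides overlapped in SaABE and SpCBE and did not in SpABE. GAPDH, ENO1, PKM and ALDOA make up most of each sum.

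The PFKFB enzymes set the level of fructose 2,6-bisphosphate, the strongest activator of phosphofructokinase, and the 2 measured here moved in opposite directions. PFKFB4 fell by 25.5%, at -0.42 ± 0.048 (SE, adjusted p = 1.41e-07). PFKFB4 was at 10.6, 9.39 and 9.94 CPM in the SaABE intergenic libraries against 8.10, 8.38 and 8.16 with the NRF1 guide, at 9.44, 9.996 and 10.1 against 7.19, 7.77 and 7.27 CPM in SpABE, and at 11.5, 12.3 and 10.3 against 7.71, 7.73 and 7.62 CPM in SpCBE. All 9 NRF1-guide libraries were below all 9 controls. In SpCBE its effect was -0.57 ± 0.072 (SE, adjusted p = 1.45e-06), the only one of the 35 past a log2 fold change of 0.5 in that editor, beside 4.45% of all tested genes. PFKFB3, the isoform with the highest kinase activity, rose over all editors by 0.10 ± 0.024 (SE, adjusted p = 0.00206). It passed in SaABE (0.11) and SpABE (0.18), and in SpCBE its effect was 0.00 ± 0.03 (SE, adjusted p = 0.983).

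Of the transporters, the glucose carriers SLC2A1 (GLUT1) and SLC2A3 (GLUT3) gave 0.07 ± 0.031 (SE, adjusted p = 0.0898) and -0.05 ± 0.071 (SE, adjusted p = 0.593) over all editors, and SLC16A1 gave -0.04 ± 0.016 (SE, adjusted p = 0.0567). SLC2A1 rose in SpABE, at 0.15 ± 0.042 (SE, adjusted p = 0.00704), a call lost without SpABE NRF1 replicate 3 (adjusted p = 0.0638) or SpABE intergenic replicate 1 (0.0662). In SaABE it was 0.11 ± 0.043 (SE, adjusted p = 0.0548) and passed with RLE scaling, with a CPM filter and with the replicate block.

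The hypoxia regulators moved little. HIF1A was at 0.03 ± 0.02 (SE, adjusted p = 0.253) over all editors, its partner ARNT at -0.04 ± 0.02 (SE, adjusted p = 0.146), EGLN1 at 0.05 ± 0.021 (SE, adjusted p = 0.0929) and EGLN3 at -0.01 ± 0.053 (SE, adjusted p = 0.923), none passing. EPAS1 (HIF2A), the second oxygen-sensitive subunit, passed narrowly over all editors, at 0.12 ± 0.046 (SE, adjusted p = 0.037). EPAS1 was at 26.7, 26.2 and 28.9 CPM in the SaABE intergenic libraries against 29.8, 28.4 and 29.6 with the NRF1 guide, at 19.5, 19.1 and 18.1 against 24.6, 21.8 and 25.5 CPM in SpABE, and at 26.6, 26.9 and 25.2 against 24.9, 25.1 and 25.5 CPM in SpCBE. The SpABE controls were the lowest group and did not overlap the SpABE NRF1-guide libraries, which gave 0.34 ± 0.054 (SE, adjusted p = 2.11e-05). SaABE gave 0.10 ± 0.053 (SE, adjusted p = 0.144) and SpCBE -0.06 ± 0.052 (SE, adjusted p = 0.447). The call over all editors ended when any 1 of 9 libraries was left out (adjusted p = 0.0540 to 0.0876) and with the replicate number as a block (adjusted p = 0.0819).

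Of the 8 tested hypoxia targets, NDRG1, a stress-responsive gene induced by low oxygen, rose most, by 19.6% over all editors, at 0.26 ± 0.035 (SE, adjusted p = 1.66e-06). NDRG1 was at 53.8, 53.2 and 53.7 CPM in the SaABE intergenic libraries against 61.3, 56.96 and 59.9 with the NRF1 guide, at 48.04, 50.4 and 50.5 against 65.3, 65.8 and 67.8 CPM in SpABE, and at 42.1, 47.3 and 43.3 against 49.05, 51.1 and 52.4 CPM in SpCBE. It passed in each editor, at 0.15 in SaABE, 0.42 in SpABE and 0.20 in SpCBE. ADM, adrenomedullin, a vasodilator peptide, rose by 16%, at 0.21 ± 0.049 (SE, adjusted p = 0.00121). ADM was at 14.2, 15.5 and 14.3 CPM in the SaABE intergenic libraries against 18, 18.3 and 17.1 with the NRF1 guide, at 13.03, 14 and 12.4 against 16.97, 16.9 and 16.6 CPM in SpABE, and at 12.3, 10.97 and 13.3 against 12.2, 12.5 and 11.7 CPM in SpCBE. The SpCBE guides overlapped in full, with an effect of 0.00 ± 0.068 (SE, adjusted p = 0.998) there. VEGFA, the main angiogenic growth factor, passed narrowly over all editors, at 0.12 ± 0.045 (SE, adjusted p = 0.0456). VEGFA was at 55.2, 53.2 and 51.5 CPM in the SaABE intergenic libraries against 56.6, 59.2 and 55.1 with the NRF1 guide, at 38.4, 39.3 and 38.3 against 49.5, 51.2 and 45.1 CPM in SpABE, and at 38.8, 36.2 and 34.6 against 32.8, 35.7 and 34.9 CPM in SpCBE. The SpABE guides did not overlap, with an effect of 0.33 ± 0.048 (SE, adjusted p = 8.01e-06), while SaABE gave 0.09 ± 0.048 (SE, adjusted p = 0.138) and SpCBE -0.09 ± 0.05 (SE, adjusted p = 0.242). The call over all editors was lost when any 1 of 11 libraries was left out (adjusted p = 0.0525 to 0.104) and with the replicate block (0.0975).

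P4HA1, a collagen prolyl hydroxylase subunit, fell by 8.35%, at -0.13 ± 0.022 (SE, adjusted p = 5.27e-05). P4HA1 was at 36.3, 37.1 and 38.4 CPM in the SaABE intergenic libraries against 34.5, 33.2 and 33.9 with the NRF1 guide, at 46.4, 45.03 and 44.3 against 41.04, 41.04 and 40.9 CPM in SpABE, and at 49.4, 47.2 and 49.03 against 45.1, 46.4 and 44.3 CPM in SpCBE. The guides did not overlap in any editor, though the editors' own levels differed by more than the guides did. In SpCBE the call ended when any 1 of 5 libraries was left out (adjusted p = 0.0508 to 0.191), with DESeq2 (0.100) and with the replicate block (0.0838). P4HA2, the other subunit, passed in SpABE, at 0.18 ± 0.046 (SE, adjusted p = 0.00366). BHLHE40, a repressor induced by hypoxia and the circadian clock, did not pass over all editors, at -0.01 ± 0.061 (SE, adjusted p = 0.902). BHLHE40 was at 22.8, 21.6 and 21.8 CPM in the SaABE intergenic libraries against 18.4, 19.6 and 17.7 with the NRF1 guide, at 17.6, 18 and 17.8 against 20.9, 23.5 and 23.5 CPM in SpABE, and at 33.1, 31.9 and 30.6 against 29.4, 28.4 and 29.6 CPM in SpCBE. It fell in SaABE, at -0.25 ± 0.055 (SE, adjusted p = 0.000841), and rose in SpABE, at 0.35 ± 0.052 (SE, adjusted p = 1.07e-05). MXI1, a MYC antagonist, lay near 0 in each editor, at 0.02 ± 0.027 (SE, adjusted p = 0.689) over all of them. ANKRD37 was at about 1 CPM, with UFSP2 on the opposite strand over its exons, and gave 0.02 ± 0.16 (SE, adjusted p = 0.931).

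**Figure D4:**
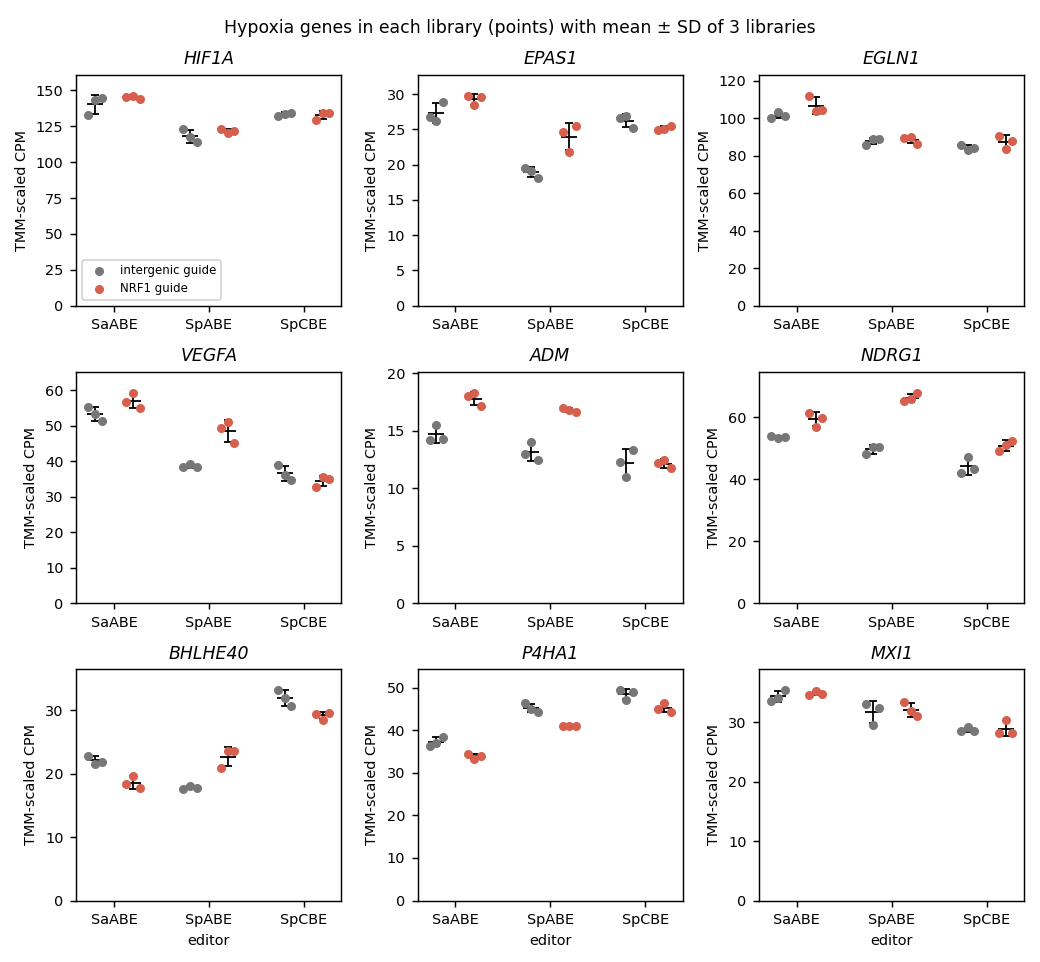
TMM-scaled CPM of 9 hypoxia genes in each of the 18 libraries, by editor and guide, drawn like the glycolysis panels. HIF1A and MXI1 show no guide effect that passed, NDRG1 is higher with the NRF1 guide in each editor, and BHLHE40 goes down in SaABE and up in SpABE, where its controls were lowest.

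Since NRF1 binds promoters, RefSeq promoter windows on GRCh38.p14, 250 bases before to 50 after a start, were searched for the letters of the NRF1 motif, GCGCA, any base, then GCGC, on both strands. Windows were given for 33 of the 37 genes (SLC2A3, SLC16A1, VEGFA and NDRG1 had none), and 26 of the 33 had one within 10 bases of the MANE Select start. GPI, PGAM1 and PFKP were not among those 26, so no window at their MANE starts was searched. The letters were found in windows of 2 of the 33 genes, LDHA and P4HA1, which is 6.06%, beside 6.98% of all 27305 genes with a window and 5.78% of all 35116 windows. They are shown because both genes fell in each editor, with PFKFB4 and the MANE start of LDHA beside them as windows without the letters. Capitals mark the NRF1 letters. P4HA1 (chr10:73096817-73097116, minus strand) is followed by PFKFB4 (chr3:48556754-48557053, minus strand), LDHA at its MANE start (chr11:18394313-18394612, plus strand) and LDHA at a start 1788 bases downstream (chr11:18396101-18396400, plus strand).
P4HA1: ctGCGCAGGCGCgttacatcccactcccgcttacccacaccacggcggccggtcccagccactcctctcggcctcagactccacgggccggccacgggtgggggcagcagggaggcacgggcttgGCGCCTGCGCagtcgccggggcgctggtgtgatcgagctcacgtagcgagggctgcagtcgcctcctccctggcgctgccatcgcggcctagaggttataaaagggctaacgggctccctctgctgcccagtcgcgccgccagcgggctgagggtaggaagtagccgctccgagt
PFKFB4: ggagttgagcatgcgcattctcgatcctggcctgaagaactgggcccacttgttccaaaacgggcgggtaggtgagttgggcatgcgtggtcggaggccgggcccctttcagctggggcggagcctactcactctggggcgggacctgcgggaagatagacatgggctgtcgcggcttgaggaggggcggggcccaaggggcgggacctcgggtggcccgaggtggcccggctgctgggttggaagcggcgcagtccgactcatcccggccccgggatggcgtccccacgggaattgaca
LDHA, MANE start: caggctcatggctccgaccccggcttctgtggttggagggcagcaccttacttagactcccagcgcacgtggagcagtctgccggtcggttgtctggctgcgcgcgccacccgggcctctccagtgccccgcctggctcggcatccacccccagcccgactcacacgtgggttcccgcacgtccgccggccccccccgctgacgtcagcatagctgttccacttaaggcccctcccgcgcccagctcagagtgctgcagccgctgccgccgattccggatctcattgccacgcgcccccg
LDHA, downstream start: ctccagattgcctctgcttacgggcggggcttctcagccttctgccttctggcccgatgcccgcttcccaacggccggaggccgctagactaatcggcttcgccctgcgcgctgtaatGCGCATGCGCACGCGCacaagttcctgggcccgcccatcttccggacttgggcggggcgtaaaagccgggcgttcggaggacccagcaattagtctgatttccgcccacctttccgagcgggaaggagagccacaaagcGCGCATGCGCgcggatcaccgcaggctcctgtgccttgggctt

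P4HA1 holds the letters at -248 and -125 from its start, and the downstream LDHA window holds overlapping copies at -132 and -126 and another at 8. The core letters of the hypoxia-inducible factors were common. ACGTG on either strand was found in windows of 19 of the 33 genes (57.6%, beside 24.9% of all genes with a window), and GCGTG in 19 of the 33 (57.6%, beside 40.6%). The MANE window of LDHA holds ACGTG at -87 and -73 among its 5 matches, counting both strands. GCGTG can fall within or beside the NRF1 letters. A match is a description of sequence, and genes with several windows had more chances to hold one.

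Whether the guide's effect differed between editors was tested as a difference of effects. SpABE minus SpCBE gave 12 of 35 genes, 11 with a higher effect in SpABE and 1 with a lower, or 34.3% beside 8.96% of all tested genes (4.54% higher and 4.42% lower). SaABE minus SpABE gave 7 of 35, 1 higher and 6 lower in SaABE, or 20% beside 11.7%, and SaABE minus SpCBE gave 0, beside 4.09%. At an unadjusted p under 0.05 the last had 8 of 35 with edgeR (22.9% beside 18.1% of all tested genes), and DESeq2 gave 0 adjusted. The first 2 differences share the SpABE libraries, so they are not independent. With the 1 CPM filter the all-gene shares were 11.9%, 15.6% and 6.11% in the order above, and those of the 35 did not change. By role, 6 of 8 hypoxia targets passed between SpABE and SpCBE, all with a higher effect in SpABE: BHLHE40, VEGFA, ADM, NDRG1, P4HA2 and ANKRD37. P4HA2 and ANKRD37 lost the call with the replicate block (adjusted p = 0.0976 and 0.0582), which left 4 of 8, and each also lost it when any 1 of 12 libraries was left out. BHLHE40 differed by 0.48 ± 0.071 (SE, adjusted p = 9.78e-05), VEGFA by 0.41 ± 0.07 (SE, adjusted p = 0.000388) and EPAS1 by 0.41 ± 0.075 (SE, adjusted p = 0.00101). PGAM1 fell less in SpABE, by 0.18 ± 0.035 (SE, adjusted p = 0.00135) against SpCBE and -0.26 ± 0.035 (SE, adjusted p = 1.93e-05) for SaABE minus SpABE. For SaABE minus SpABE, BHLHE40 differed by -0.60 ± 0.076 (SE, adjusted p = 1.09e-05), NDRG1 by -0.27 ± 0.058 (SE, adjusted p = 0.00328) and VEGFA by -0.23 ± 0.068 (SE, adjusted p = 0.0261). The count of 7 for SaABE minus SpABE dropped to 4 without SaABE NRF1 replicate 1 or 3, SaABE intergenic replicate 3, SpABE NRF1 replicate 3 or SpABE intergenic replicate 2, and to 3 without SpABE NRF1 replicate 1. VEGFA in that difference was lost without SpABE NRF1 replicate 2 (adjusted p = 0.0839) and 5 other libraries.

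Control levels also differed between editors. The same control libraries enter these differences and the comparisons between controls, so they are not independent. By mean CPM, VEGFA (38.7 and 36.5), NDRG1 (49.6 and 44.2) and ADM (13.2 and 12.2) were higher in SpABE than in SpCBE controls. BHLHE40 (17.8 and 31.9), P4HA2 (32.9 and 37.7) and ANKRD37 (1.01 and 1.28) were lower there. The part of control levels in the differences was not tested. Between the intergenic controls, 17 of 35 genes passed for SaABE against SpABE (48.6% beside 38.4% of all tested genes), 21 for SaABE against SpCBE (60% beside 40.6%) and 21 for SpABE against SpCBE (60% beside 35.5%). With the 1 CPM filter these shares were 45.7% beside 46.8%, 62.9% beside 48.7% and 60% beside 43.0%. BHLHE40 was lowest in the SpABE controls, -0.84 ± 0.05 (SE, adjusted p = 6.86e-12) against SpCBE, and highest in SpCBE, with SaABE against SpCBE at -0.53 ± 0.05 (SE, adjusted p = 7.86e-09). EPAS1 in the SpABE controls was below SaABE, with SaABE minus SpABE at 0.53 ± 0.055 (SE, adjusted p = 4.61e-08), and below SpCBE, at -0.47 ± 0.054 (SE, adjusted p = 2.69e-07). VEGFA was highest in the SaABE controls, by 0.46 ± 0.049 (SE, adjusted p = 5.6e-08) over SpABE and 0.54 ± 0.049 (SE, adjusted p = 3.59e-09) over SpCBE. HIF1A was also higher in SaABE than SpABE, by 0.25 ± 0.032 (SE, adjusted p = 1.15e-06). P4HA1 was lower in SaABE, by -0.28 ± 0.036 (SE, adjusted p = 1.22e-06) and -0.38 ± 0.036 (SE, adjusted p = 7.95e-09). LDHA and ENO1 were lowest in SpCBE, with SpABE minus SpCBE at 0.25 ± 0.03 (SE, adjusted p = 4.21e-07) and 0.21 ± 0.023 (SE, adjusted p = 2.58e-07). Editor, plasmid and guide sequence differ together between these controls and cannot be told apart. The summed blood markers, mostly GATA2, moved with the guide in the directions that BHLHE40 did: 77.5 to 84.0 against 65.5 to 67.0 CPM in SaABE (intergenic against NRF1 guide), 61.5 to 68.0 against 72.3 to 75.4 CPM in SpABE and 66.8 to 68.6 against 59.9 to 62.8 CPM in SpCBE. Their part in the results was not tested.

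Other genes of both pathways were counted as a wider list, which was also chosen with earlier results of these data known. Its shares with the 1 CPM filter are not given here. Of 45 further glycolysis and glucose genes, 35 were tested, and 12 rose and 7 fell over all editors (54.3% beside 39.4%). PYGL and PYGB, glycogen phosphorylases that release glucose 1-phosphate from glycogen, fell, at -0.88 ± 0.025 (SE, adjusted p = 7.24e-19) and -0.36 ± 0.027 (SE, adjusted p = 9.15e-11). PYGL was at 209.8 to 239 CPM in the 9 controls against 105 to 131 CPM under the NRF1 guide. SLC16A7 (MCT2), a high-affinity importer of monocarboxylates, fell, at -0.78 ± 0.098 (SE, adjusted p = 6.66e-07). BPGM, which makes 2,3-bisphosphoglycerate, rose by 0.19 ± 0.024 (SE, adjusted p = 7.48e-07), and BSG, the chaperone of the lactate transporters, by 0.12 ± 0.017 (SE, adjusted p = 4.89e-06). GPD1L, a glycerol 3-phosphate dehydrogenase relative, rose by 0.18 ± 0.029 (SE, adjusted p = 2.72e-05). Of 54 further hypoxia genes, 51 were tested, and 11 rose and 10 fell (41.2%). BNIP3 and BNIP3L, mitophagy receptors induced by hypoxia, fell, at -0.90 ± 0.038 (SE, adjusted p = 1.13e-15) and -0.31 ± 0.031 (SE, adjusted p = 1.65e-08). BNIP3 was at 54.2 to 65.7 CPM in the 9 controls against 26.2 to 39.2 CPM under the NRF1 guide. FUT11, a fucosyltransferase, fell, at -0.59 ± 0.053 (SE, adjusted p = 2.3e-09), and KDM4C, a histone demethylase, rose by 0.33 ± 0.035 (SE, adjusted p = 4.3e-08). RBX1 and ELOC, parts of the ubiquitin ligase that degrades hypoxia-inducible factors, moved apart, at -0.22 ± 0.025 (SE, adjusted p = 1.02e-07) and 0.20 ± 0.023 (SE, adjusted p = 2.56e-07).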

How the data were processed

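Polyadenylated RNA of 18 HEK293T libraries was analysed as 6 groups of 3. Per the labels and methods, the authors used Cutadapt 1.18 for trimming and STAR 2.7.0f (2-pass) for mapping to hg38 and GENCODE 30. DESeq2 1.46.0 is also named by the submitters. The authors made the libraries with the Illumina Stranded mRNA Prep kit. How reads were counted per gene, and with which strand setting, is not given in the sources used here, so overlapping genes and close paralogs are uncertain. The deposited values are estimated counts per gene (expected counts, 19.63% of nonzero values not whole), which were rounded. Another 18 sample columns were not used.

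edgeR 4.0.16 quasi-likelihood tests used TMM scaling and filterByExpr (17743 genes), with Benjamini-Hochberg adjustment over all of them. The comparison over all editors had the editor as a term, and all others came from 6 group means. Intervals are 1.96 SE. TPM used the merged length of all GENCODE 44 exons of a gene, not of an expressed transcript, so ratios between genes also depend on the annotation. The genes named by rule were the 10 with the smallest p over all editors and up to 4 per other comparison, and up to 6 for each wider list. Library values are printed for these members except HIF1A and ENO1, which are drawn in the figures. The wider-list genes are given as effects, with ranges for PYGL and BNIP3. The members and lists were chosen with earlier results of these data known. Nothing in the labels says that replicates were separate cultures, so p-values measure only library-to-library spread, possibly technical. All pairs of replicates differed beyond sampling noise. Same-numbered SpABE libraries deviated together (r = 0.151, 0.106 and 0.119 over 9417 genes), a pairing seen in the data and not stated in the labels. Same-numbered SpCBE libraries also had positive r, at 0.0326, 0.0509 and 0.102, with -0.142 to 0.0769 for those of different numbers. In SaABE the same-numbered r were all negative (-0.37 to -0.0363). Some SaABE libraries of different numbers deviated together (NRF1 replicate 1 with intergenic replicate 2, r = 0.338, and NRF1 2 with intergenic 1, r = 0.342). A block by number therefore does not pair the SaABE libraries that vary together. Alternatives were RLE scaling, 2 other filters, DESeq2 1.42.0, no editor term, a replicate block and each library left out.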

Additional observations from a re-analysis of the deposited data

Results flagged for a closer look

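The guide's effect differed between editors for 19 pairs of gene and editor comparison, by edgeR's test of the difference with Benjamini-Hochberg adjustment over 17743 genes. For SaABE minus SpABE, the log2 differences were -0.60 for BHLHE40, -0.27 for NDRG1, -0.26 for PGAM1, -0.24 for EPAS1, -0.23 for VEGFA, -0.14 for ALDOA and 0.22 for PFKL. For SpABE minus SpCBE they were 1.04 for ANKRD37, 0.48 for BHLHE40, 0.41 for VEGFA, 0.41 for EPAS1, 0.35 for ADM, 0.22 for NDRG1, 0.21 for P4HA2, 0.20 for ALDOA, 0.20 for SLC2A1, 0.18 for PFKFB3, 0.18 for PGAM1 and -0.31 for PFKL. Both sets rest on the same SpABE libraries. ANKRD37, at about 1 CPM, was lost when any 1 of 12 libraries was left out (adjusted p = 0.05002 to 0.135), P4HA2 without any 1 of 12 (0.0518 to 0.132) and SLC2A1 without any 1 of 7 (0.0525 to 0.108). In SaABE minus SpABE, ALDOA was lost when any 1 of 9 libraries was left out (0.0571 to 0.126), EPAS1 without any 1 of 8 (0.0604 to 0.140), PFKL without any 1 of 11 (0.05002 to 0.102) and VEGFA without any 1 of 6 (0.0505 to 0.0839). NDRG1 in SpABE minus SpCBE was lost without SpABE NRF1 replicate 3 (0.0537), SpCBE NRF1 replicate 1 (0.0578) or SpCBE intergenic replicate 2 (0.0721), and ADM without SpCBE intergenic replicate 3 (0.0663). BHLHE40 and PGAM1 kept both calls with any 1 library left out.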

How the results depend on the processing

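The naming rule gave 42 pairs of gene and comparison with the smallest p, which are the least likely to lose a call. Their stability therefore does not describe the other calls. Over these pairs, 217 of 220 values under other scaling, filters, DESeq2, no editor term and the block kept direction and side of the threshold and 3 lost the call. With each library left out, 750 of 756 did so and 6 lost the call, each of them VEGFA for SaABE minus SpABE. None of either kind reversed. With no editor term, 7 of the 35 genes (20%) passed over all editors in place of 20, beside 19.4% of all tested genes in place of 39.4%, and LDHA (-0.13), P4HA1 (-0.13) and ADM (0.22), the 3 losses above, were among those lost. With each library left out in turn, 16 to 21 genes passed over all editors, 13 to 15 in SaABE, 16 to 20 in SpABE, 9 to 13 in SpCBE, 3 to 7 for SaABE minus SpABE, 0 to 1 for SaABE minus SpCBE (ADM, without SpCBE intergenic replicate 2) and 8 to 13 for SpABE minus SpCBE. Between controls the ranges were 12 to 17, 17 to 23 and 16 to 22. Of the 20 genes passing over all editors, 15 passed with any 1 library left out. With the replicate number as a block, 15 genes passed over all editors (42.9% beside 34.5% of all tested genes), 15 in SaABE (42.9% beside 29.6%), 17 in SpABE (48.6% beside 30.1%), 10 in SpCBE (28.6% beside 20.5%), 5 for SaABE minus SpABE (14.3% beside 8.88%), 0 for SaABE minus SpCBE (beside 2.62%) and 10 for SpABE minus SpCBE (28.6% beside 6.80%), and 17, 22 and 21 between the controls (beside 38.5%, 40.7% and 35.5%). The block ended the calls of ENO1, ENO2, PKM, EPAS1 and VEGFA over all editors, of ALDOA and EPAS1 for SaABE minus SpABE, of ANKRD37 and P4HA2 for SpABE minus SpCBE, of P4HA1 in SpCBE and of MXI1 between the SaABE and SpABE controls. The causes were not tested. At this depth genes near 1 CPM, such as ANKRD37, had standard errors of 0.16 or more on the log2 scale, and CA9 and SLC16A3 gave no test.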

Other observations

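Isoform makeup was computed after the values above were seen and is given as a description, with no test. Other families, such as hexokinase and aldolase, were also computed and are not shown. Those shown each hold a gene that fell, so they restate its change. PFKFB4 made up 15.3% ± 1.62 (SD, n = 9) of the summed PFKFB3 and PFKFB4 TPM with the intergenic guide and 11.2% ± 0.812 with the NRF1 guide. LDHA made up 25.6% ± 1.04 of the summed LDHA and LDHB TPM against 23.1% ± 1.26. PFKP made up 23.4% ± 1.04 of the phosphofructokinase TPM against 20.7% ± 0.769.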
